A study of Danio rerio with 15 samples.

Results

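Crystallins are the main soluble proteins of the eye lens, and 57 of the 47048 gene entries in the deposited zebrafish count table carried the symbol of an alpha, beta or gamma crystallin. Members were all entries whose symbol begins with crya, cryba, crybb or cryg, leaving out entries whose symbol carries a numbered suffix (_1, for example). They comprised 3 alpha, 13 beta and 41 gamma crystallins. Of these, 43 passed the filter on low counts (1 alpha, 13 beta and 29 gamma) among the 23874 entries that passed it in all.

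The tested embryos came from 4 exposures to short-chain per- and polyfluoroalkyl substances. FBSA is a perfluorobutane sulfonamide, and PFBS is the sulfonic acid on the same fluorinated chain. PFPeA (perfluoropentanoic acid) is a carboxylic acid, and 42FTS is a fluorotelomer sulfonic acid, with an ethyl group between chain and head group. Each compound was given at 47 uM, and the Control embryos received 0 uM; all 5 groups were in medium with 0.5% methanol. Tropical 5D zebrafish, a wild-type line, lost their chorions at 4 hours after fertilization, entered static exposure at 8 hours and were collected whole at 48 hours. Each library held the polyadenylated RNA of 10 pooled embryos, and each group had 3 libraries, 15 in all. The comparison asks whether the head group on a short fluorinated chain is reflected in the transcripts of the embryo. The labels do not state whether pools of one group differ in clutch, and the p-values reflect only how far these pools spread.

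Lens fibre cells fill themselves with crystallins and then lose their nuclei and organelles, which keeps the tissue transparent. Alpha crystallins belong to the small heat shock proteins and act as chaperones, whereas beta and gamma crystallins share a common fold and serve mainly as structural proteins of high refractive power. Beta crystallins assemble into oligomers of acidic (cryba) and basic (crybb) chains. Gamma crystallins are monomers, and fish lenses hold a large methionine-rich group of them, the gamma M crystallins (crygm). In zebrafish, lens fibres differentiate during the second day of development, so whole embryos at this stage hold a young lens.

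Gene counts per library ranged from 24249287 to 32686343. Control 3 and 42FTS 2 had fewer gene counts (24249287 to 24552649) and more unaligned reads (9.92% to 9.94%) than the remaining 13 libraries (6.32% to 6.73% unaligned). No 2 libraries had identical counts. The crystallins together took 0.937% to 1.13% of the gene counts of a library, with a median of 1.04%. Levels below are CPM, the counts scaled to library totals with the trimmed mean of M-values, and they are not divided by transcript length. They are therefore compared between groups for one gene, not between genes.

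Lens markers outside the family were present in every library. The aquaporin genes of the lens fibre membrane were counted at 278 to 309 CPM (mipb) and 41.1 to 66.6 CPM (mipa) in FBSA, and at 246 to 261 CPM (mipb) and 41.9 to 51.8 CPM (mipa) in Control. Of the photoreceptor genes, rho (rod opsin) was counted at 3.44 to 16.8 CPM and opn1sw1 (an ultraviolet opsin) at 0.0306 to 0.583 CPM over the 15 libraries.

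Reads of the beta class came almost wholly from 8 genes. In Control libraries, crybb1 took 21.0% of the beta reads, cryba1b 15.4%, crybb1l2 13.5% and cryba1l1 12.9%, and with crybb1l1, cryba4, cryba2a and cryba2b these genes took 99.2%. The gamma class was led by crygn2, a gamma N crystallin, with 25.9% of its reads, followed by crygmxl2 (11.1%), crygm2d8 (10.8%) and crygm2d13 (10.4%). These are shares of reads, which grow with transcript length as well as with transcript number.

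The alpha class rested on cryaa alone. The alpha B genes cryaba and cryabb never exceeded 5 counts in a library and were not tested. Among gamma crystallins 12 were not tested, and no untested gamma gene exceeded 8 counts in a library. The 4 members with no count in any library were crygm1, crygm6, crygm7 and crygs4. All 13 beta genes and all 21 crygm2d genes were tested.

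In FBSA, the summed alpha crystallins of each library lay above those of every library of the other groups, by a narrow margin over PFBS 2 (51.1 CPM), whereas the summed beta and gamma crystallins overlapped between FBSA and Control. Alpha sums were 65.0, 51.4 and 54.2 CPM in FBSA 1, 2 and 3, against 41.7, 42.4 and 34.9 CPM in Control 1, 2 and 3. Beta sums were 7975, 6806 and 7791 CPM in the FBSA libraries, against 6626, 7361 and 7051 CPM in the Control libraries. Gamma sums were 3614, 2919 and 3391 CPM in FBSA, against 3174, 3476 and 3168 CPM in Control. The spread of the beta and gamma sums within FBSA was wider than within Control, with FBSA 2 the low library of its group in all 3 classes. In bulk RNA of whole embryos, fewer lens cells and less RNA per lens cell cannot be told apart.

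Mean alpha sums of the other exposures lay within 1 SD of Control, whereas the mean beta and gamma sums of 42FTS lay below Control, and the mean gamma sum of PFBS above it, by more than the Control SD. The libraries of these groups overlapped with Control in each case. Summed alpha crystallins averaged 56.9 ± 7.16 CPM in FBSA, 42.7 ± 7.41 in PFBS, 37.9 ± 3.52 in PFPeA, 38.8 ± 4.64 in 42FTS and 39.7 ± 4.18 in Control (SD, n = 3 each). Summed beta crystallins averaged 7524 ± 629 CPM in FBSA, 7274 ± 239 in PFBS, 7067 ± 549 in PFPeA, 6522 ± 343 in 42FTS and 7012 ± 369 in Control. Summed gamma crystallins averaged 3308 ± 355 CPM in FBSA, 3531 ± 72.3 in PFBS, 3244 ± 373 in PFPeA, 2986 ± 282 in 42FTS and 3273 ± 176 in Control. The lowest beta sum of all 15 libraries was that of 42FTS 1 (6238 CPM) and the lowest gamma sum that of 42FTS 2 (2786 CPM). The ratio of beta to gamma reads was 2.28 ± 0.0646 in FBSA, 2.06 ± 0.0982 in PFBS, 2.19 ± 0.0918 in PFPeA, 2.19 ± 0.110 in 42FTS and 2.14 ± 0.0728 in Control. FBSA libraries ranged from 2.21 to 2.33 and Control libraries from 2.09 to 2.23, so the groups overlapped. The sums were chosen to describe the family and carry no test.

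**Figure D1:**
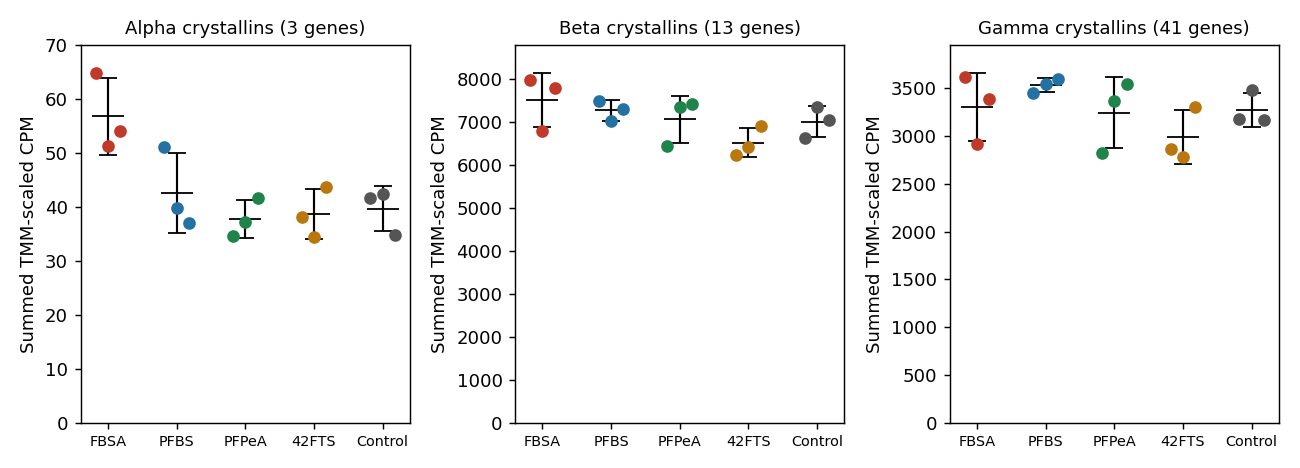
Summed TMM-scaled CPM of the alpha, beta and gamma crystallins (vertical axes, from 0) in each library (points), by group along the horizontal axis, with the mean (long bar) and SD (whiskers) of 3 libraries. The 3 FBSA libraries lie at 51.4 to 65.0 CPM for alpha crystallins, above the 34.9 to 42.4 CPM of Control, while beta and gamma sums overlap between the groups.

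FBSA against Control gave 3 calls among the crystallins, 2 higher and 1 lower. In edgeR's quasi-likelihood test, with p-values adjusted by Benjamini-Hochberg across the 23874 entries and a threshold of 0.05, these were 6.98% of the 43 tested members, against 9.53% of all genes tested (5.28% higher and 4.25% lower). At an unadjusted p under 0.05, 9 members passed, against 23.7% of all genes. The median log2 fold change was 0.02 over the members and 0.01 over all genes, and 22 members lay above 0 and 21 below. The median over the members was -0.07 without FBSA 1, 0.07 without FBSA 2, -0.05 without FBSA 3, -0.02 without Control 3 and -0.02 without the pair Control 3 and 42FTS 2, so it had no stable sign. In 7 members, 2 higher and 5 lower, the FBSA and Control libraries did not overlap, against 28.0% of all genes.

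The alpha crystallin cryaa, the lens form of the chaperone pair, was higher in FBSA. It had 65.0, 51.3 and 54.2 CPM in FBSA 1, 2 and 3, against 41.7, 42.4 and 34.8 CPM in Control 1, 2 and 3. Every FBSA library thus lay above every Control library. The log2 fold change was 0.52 (SE 0.13, 95% CI 0.24 to 0.80, adjusted p = 0.0235 by edgeR). The call was lost without FBSA 1 (0.41, adjusted p = 0.0767), without Control 1 (0.55, 0.0544), without Control 3 (0.43, 0.0951) and without the pair Control 3 and 42FTS 2 (0.44, 0.0841). In the authors' deposited table, cryaa had a log2 fold change of 0.52 with a Q of 5.03e-05. The authors' TPM, which are scaled by length, were 92.6, 78.3 and 78.1 in FBSA 1, 2 and 3, against 63.0, 64.6 and 52.4 in Control 1, 2 and 3.

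Among the acidic beta crystallins, cryba1l2 was higher in FBSA. It had 53.3, 57.6 and 51.3 CPM in FBSA 1, 2 and 3, against 42.6, 37.6 and 42.6 CPM in Control 1, 2 and 3. No FBSA library reached down to the Control range, and the log2 fold change was 0.40 (SE 0.07, 95% CI 0.25 to 0.55, adjusted p = 0.00243 by edgeR). This call held without any single library of the 2 groups, with log2 fold changes of 0.35 to 0.44. The authors' deposited table gave 0.39 with a Q of 0.00300. On the length-scaled authors' TPM, cryba1l2 averaged 42.5 ± 2.38 in FBSA and 33.7 ± 2.47 in Control, and cryaa 83.0 ± 8.33 in FBSA and 60.0 ± 6.65 in Control (SD, n = 3 each). Per length, cryaa therefore stood above cryba1l2 in both groups.

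The basic beta crystallin gene crybb1l3 was lower in FBSA. It had 6.35, 4.44 and 4.24 CPM in FBSA 1, 2 and 3 (200, 142 and 136 counts), against 7.71, 7.31 and 8.27 CPM in Control 1, 2 and 3 (252, 240 and 206 counts). The FBSA libraries all lay below the Control range. The log2 fold change was -0.63 (SE 0.14, 95% CI -0.94 to -0.32, adjusted p = 0.0127 by edgeR). The call was lost without FBSA 2 (-0.55, adjusted p = 0.0676), without FBSA 3 (-0.52, 0.0501), without the pair Control 3 and 42FTS 2 (-0.58, 0.0630) and in a fit of the 2 groups alone (-0.63, 0.0988). The authors' deposited table, which holds only genes with an FBSA Q under 0.05, did not list it.

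A further basic chain, crybb2, had the lowest log2 fold change of the family in FBSA without passing the threshold. It was counted 9, 1 and 1 times in FBSA 1, 2 and 3, against 17, 22 and 19 times in Control 1, 2 and 3. The groups did not overlap, yet the log2 fold change of -2.45 had an SE of 0.77, a 95% CI of -4.09 to -0.81 and an adjusted p of 0.0594 by edgeR. Without FBSA 1 it passed (-4.21, adjusted p = 0.0120).

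**Figure D2:**
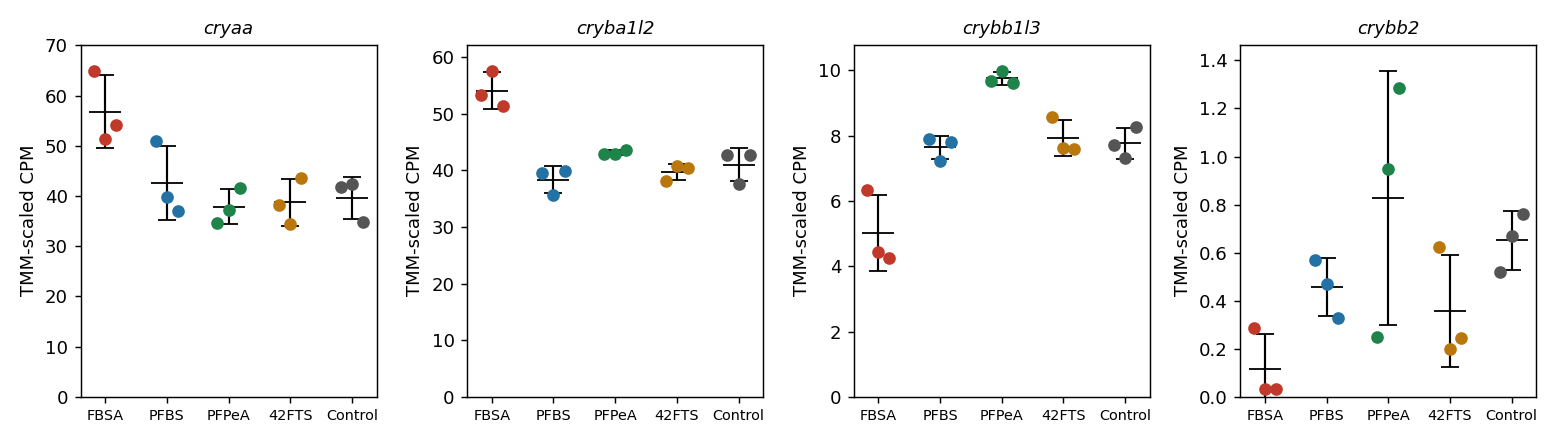
TMM-scaled CPM of cryaa, cryba1l2, crybb1l3 and crybb2 (vertical axes, from 0, so the lower whisker of crybb2 in FBSA is cut off) in each library (points), by group, with the mean (long bar) and SD (whiskers) of 3 libraries. FBSA libraries lie above Control for cryaa and cryba1l2 and below Control for crybb1l3 and crybb2.

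The 8 beta genes with the most reads gave no call in FBSA against Control. Their log2 fold changes ran from -0.07 to 0.19, with 95% CI bounds between -0.27 and 0.34 and a smallest adjusted p of 0.109. The gene with the most beta reads, crybb1, averaged 1582 ± 120 CPM in FBSA and 1473 ± 82.3 CPM in Control (SD, n = 3 each). Its log2 fold change of 0.10 had a 95% CI of -0.03 to 0.24. The acidic chain genes cryba1l1 (0.19, adjusted p = 0.109) and cryba1b (0.18, adjusted p = 0.182) were among the 9 members with an unadjusted p under 0.05, while cryba2a had -0.07 (95% CI -0.27 to 0.13).

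None of the 29 tested gamma crystallins was called in FBSA against Control by edgeR, and 3 had an unadjusted p under 0.05. DESeq2 gave the same numbers of calls over the whole family, 2 higher and 1 lower. It called 3096 genes in all, against 2274 in edgeR, and gave 2 of the 43 members no adjusted p. The 8 gamma genes with the most reads had log2 fold changes of -0.13 to 0.20 and a smallest adjusted p of 0.123. The gamma N gene crygn2 averaged 887 ± 98.4 CPM in FBSA and 847 ± 40.0 CPM in Control, a log2 fold change of 0.07 (95% CI -0.13 to 0.26). The gamma M genes crygm2d8 and crygm2d13 had -0.04 (95% CI -0.27 to 0.20) and -0.07 (95% CI -0.28 to 0.14).

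In a few gamma genes 1 Control library stood far above the other Control libraries. The genes in this paragraph were named after their values had been seen, because their groups did not overlap. For crygm2d20, FBSA 1, 2 and 3 had 12.4, 10.0 and 13.2 CPM, against 14.1, 13.5 and 52.6 CPM in Control 1, 2 and 3. For crygm2d12, FBSA 1, 2 and 3 had 9.84, 8.20 and 9.94 CPM, against 10.7, 32.6 and 13.4 CPM in Control 1, 2 and 3. High values of crygm2d12 also occurred in 42FTS 1 (27.6 CPM) and PFPeA 3 (20.9 CPM). Within Control, replicate 3 was thus the high library of crygm2d20 and replicate 2 that of crygm2d12. The log2 fold changes of -1.17 and -1.02 in FBSA against Control had adjusted p-values of 0.127 and 0.243 by edgeR. The gamma S gene crygs1 averaged 1.03 ± 0.487 CPM in FBSA and 1.94 ± 0.522 CPM in Control (adjusted p = 0.271).

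**Figure D3:**
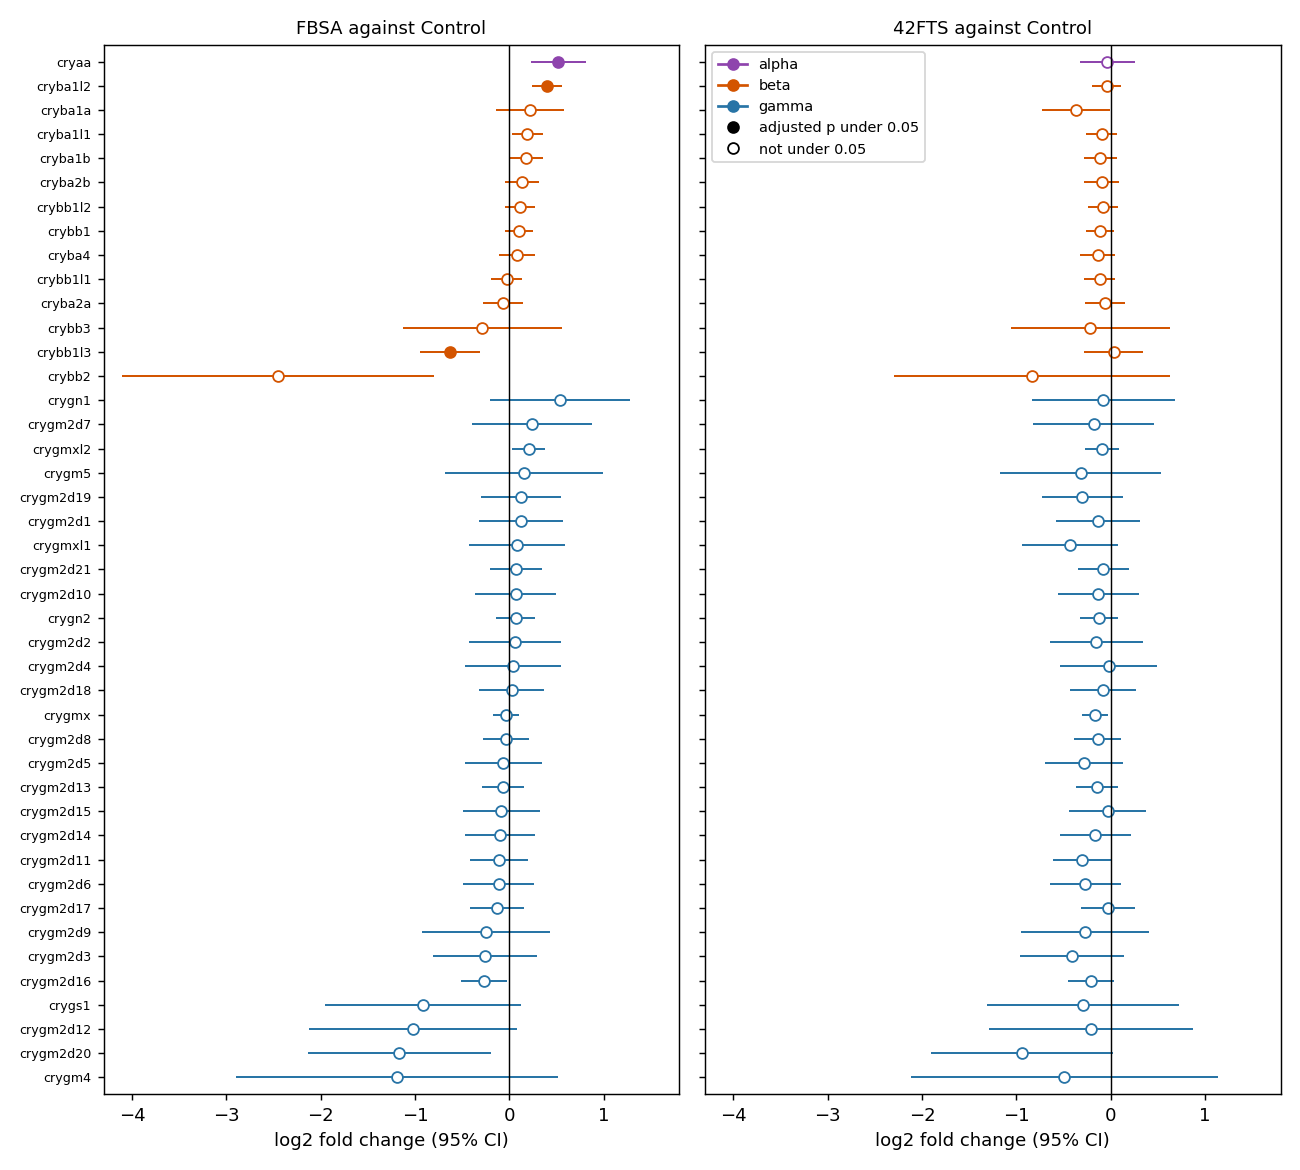
Log2 fold changes (horizontal axis) with 95% CI of the 43 tested crystallins (rows, in the order alpha, beta, gamma, and within a class by the value in FBSA) for FBSA against Control on the left and 42FTS against Control on the right. Filled points mark an adjusted p under 0.05, which cryaa, cryba1l2 and crybb1l3 reached on the left and no gene on the right. In the right panel 42 of 43 points lie below 0.

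PFBS against Control called 0 of the 43 crystallins in edgeR, as it did of all genes tested (0%). An unadjusted p under 0.05 was reached by 1 member, against 3.87% of all genes, and DESeq2 called 0 members. That member was crygmxl2, with a log2 fold change of 0.18. The median over the members was 0.07, and 29 lay above 0. Leaving out single libraries moved the median to between 0.02 (without PFBS b) and 0.09 (without Control 2). For cryaa, PFBS had 50.9, 39.8 and 37.0 CPM in PFBS 2, a and b, so that PFBS 2 lay above the Control range and the others within it. On the authors' length-scaled TPM, cryaa had 58.6, 64.4 and 57.7 in PFBS 1, 2 and 3, all within the 52.4 to 64.6 of Control. The log2 fold change of cryaa was 0.10 (95% CI -0.18 to 0.38), that of cryba1l2 -0.10 (95% CI -0.24 to 0.05) and that of crybb1l3 -0.02 (95% CI -0.32 to 0.28). The groups did not overlap in 4 members, against 9.31% of all genes.

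PFPeA against Control also called 0 members in edgeR (0% of all genes) and 0 in DESeq2, with 1 member at an unadjusted p under 0.05, against 5.21% of all genes. This was crybb1l3, at 9.66, 9.99 and 9.61 CPM in PFPeA 1, 2 and 3, against 7.71, 7.31 and 8.27 CPM in Control 1, 2 and 3. All PFPeA libraries lay above all Control libraries, and the log2 fold change was 0.33 (95% CI 0.03 to 0.63, adjusted p = 0.955 by edgeR). The median over the members was 0.00, with 22 above 0. The count above 0 was 29 without PFPeA 1 (median 0.08), 14 without PFPeA 2 (median -0.06), 11 without PFPeA 3 (median -0.05), 16 without Control 1 (median -0.04) and 28 without Control 2 (median 0.04), so the median had no stable sign. For cryaa the log2 fold change was -0.07 (95% CI -0.35 to 0.21) and for cryba1l2 0.08 (95% CI -0.07 to 0.22). The groups did not overlap in 3 members, against 10.7% of all genes.

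42FTS against Control called 0 members in edgeR (0% of all genes) and 0 in DESeq2, yet 42 of the 43 log2 fold changes lay below 0. The exception was crybb1l3 (0.03). The median was -0.14 over the members and -0.01 over all genes tested, 12 of 13 beta genes and all 29 tested gamma genes lay below 0, and 3 members had an unadjusted p under 0.05, against 4.07% of all genes. These were crygmx (-0.17), cryba1a (-0.37) and crygm2d11 (-0.30), with adjusted p-values of 0.997 by edgeR. The count of 42 was the same with size factors in place of trimmed means and with library totals computed without crystallins. It was 35 without 42FTS 2, 37 without Control 3 and 37 without that pair, with a median of -0.10 in the last case. The median was -0.23 without 42FTS 3, where 8 members had an unadjusted p under 0.05, and -0.08 without Control 2, where 1 did. For these 2 fits the share of all genes at that level was not computed, so the counts are not read as enrichment. The 42FTS and Control libraries did not overlap in 6 members, all lower, against 9.76% of all genes. Since the members belong to one gene family and share libraries, their signs cannot be taken as independent, and no test was made of them together.

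The size of these values in 42FTS can be read from the genes with the most reads. For crybb1, 42FTS 1, 2 and 3 had 1300, 1322 and 1451 CPM, against 1399, 1561 and 1458 CPM in Control 1, 2 and 3. For crygn2, 42FTS 1, 2 and 3 had 728, 767 and 838 CPM, against 816, 892 and 833 CPM in Control 1, 2 and 3. In both genes 42FTS 3 reached into the Control range and the other 42FTS libraries lay below it. The log2 fold changes were -0.12 for crybb1 (95% CI -0.26 to 0.02) and -0.12 for crygn2 (95% CI -0.32 to 0.07).

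Across the tested members, extreme values gathered in a few libraries. FBSA 2 was the lowest of 15 libraries for 13 members, 11 of them gamma crystallins, and FBSA 1 was the highest for 12, 7 of them beta crystallins. 42FTS 1 and 42FTS 2 were each the lowest for 10 members. The mean coefficient of variation within groups had a median of 7.32% over the 13 beta genes and of 15.8% over the 29 tested gamma genes, and it was 12.4% for cryaa.

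**Figure D4:**
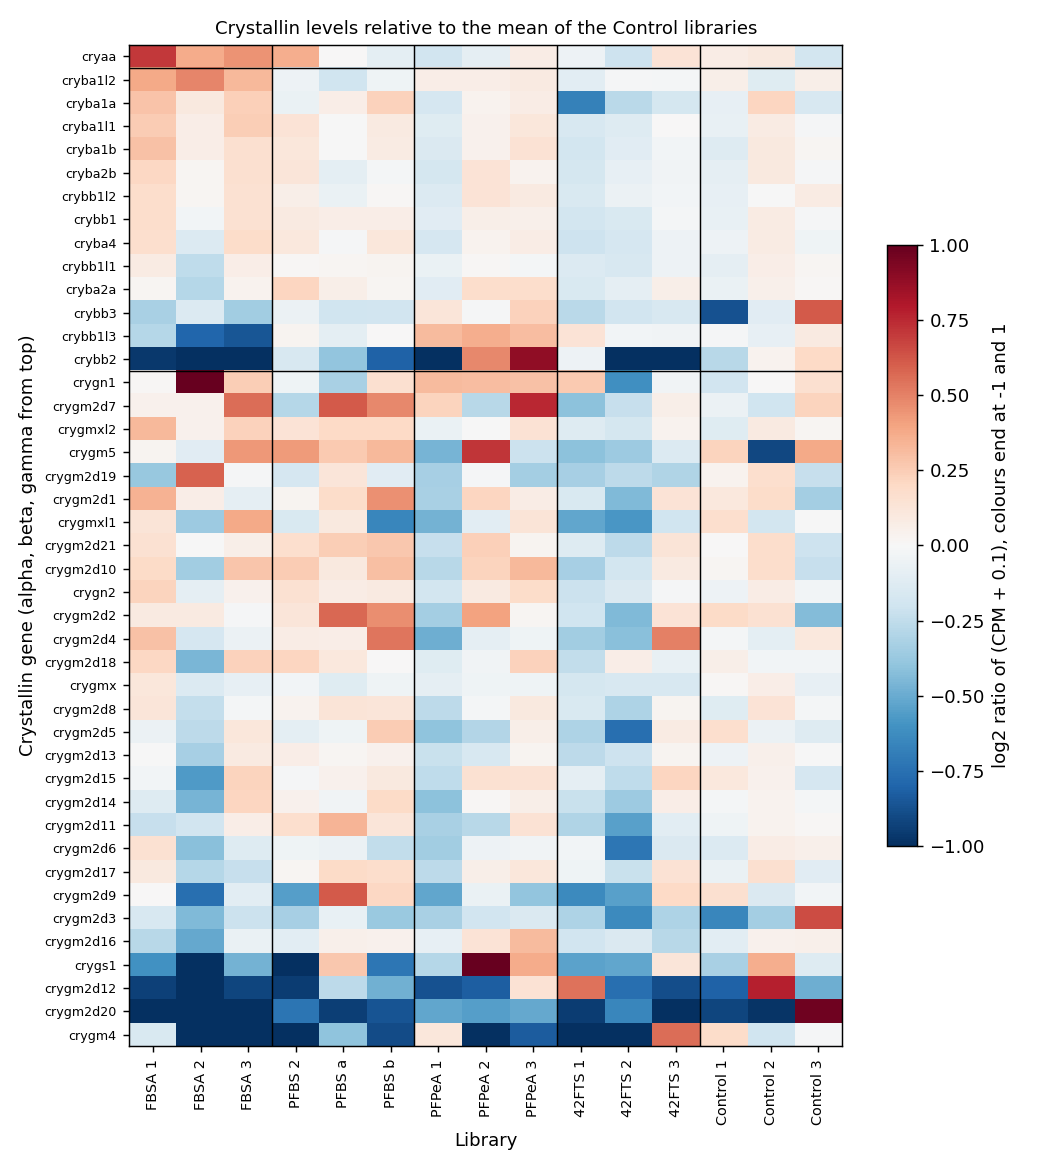
Log2 ratio of CPM + 0.1 to the mean of the Control libraries (colour, red higher and blue lower, ending at -1 and 1) for the 43 tested crystallins (rows) in 15 libraries (columns, grouped by exposure). FBSA 2 is pale to blue for many gamma genes in the lower block while FBSA 1 is red for most beta genes, and 42FTS 1 and 42FTS 2 are mostly blue.

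FBSA was also compared with each acid at the same concentration and age. These comparisons reuse the FBSA libraries, so their values stand side by side and are not independent of each other. FBSA against PFBS, which differ in the head group on the same chain, called 2 of 43 members, against 10.1% of all genes. Of the called genes, 1 was higher, against 5.16% of all genes, and 1 lower, against 4.98%, and 6 members had an unadjusted p under 0.05, against 24.6%. The groups did not overlap in 8 members, against 28.3% of all genes, and 29 members lay below 0, with a median of -0.11. Without FBSA 2, 20 lay below 0 and the median was 0.01. The called genes were cryba1l2, with a log2 fold change of 0.50 (95% CI 0.35 to 0.64, adjusted p = 0.000521 by edgeR), and crybb1l3, with -0.61 (95% CI -0.91 to -0.30, adjusted p = 0.0140). cryba1l2 had 53.3, 57.6 and 51.3 CPM in FBSA 1, 2 and 3, against 39.5, 35.6 and 39.8 CPM in PFBS 2, a and b, with no overlap. For cryaa the log2 fold change was 0.42 (95% CI 0.14 to 0.70), with an adjusted p of 0.0575, and it passed without PFBS 2 (0.57, adjusted p = 0.0166), in DESeq2 (0.41, adjusted p = 0.0205) and without the pair Control 3 and 42FTS 2 (0.42, adjusted p = 0.0469). The call of crybb1l3 was lost without FBSA 2 (-0.52, adjusted p = 0.0776), without FBSA 3 (-0.50, 0.0576), without PFBS 2 (-0.58, 0.0509) and in a fit of the 2 groups alone (-0.61, 0.0981).

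FBSA against PFPeA called 5 of 43 members, 2 higher and 3 lower, against 8.26% of all genes (4.08% higher and 4.18% lower). At an unadjusted p under 0.05, 8 members passed, against 22.9% of all genes, and the groups did not overlap in 8 members, against 26.8% of all genes. cryaa was higher by 0.59 on the log2 scale (95% CI 0.31 to 0.87, adjusted p = 0.0145 by edgeR) and cryba1l2 by 0.32 (95% CI 0.18 to 0.47, adjusted p = 0.00962). crybb1l3 was lower, with -0.96 (95% CI -1.27 to -0.66, adjusted p = 0.00111), and no FBSA library overlapped with the 9.61 to 9.99 CPM of PFPeA. crybb2 was counted 9, 1 and 1 times in FBSA 1, 2 and 3, against 8, 30 and 40 times in PFPeA 1, 2 and 3, so the groups overlapped. Its log2 fold change was -2.80 (95% CI -4.42 to -1.17, adjusted p = 0.0348). The gamma M gene crygm2d16 averaged 32.9 ± 5.01 CPM in FBSA and 43.7 ± 6.05 CPM in PFPeA, with overlap between the groups (log2 fold change -0.41, adjusted p = 0.0316).

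Of these 5 calls, cryba1l2 and crybb1l3 were kept without any single library of the 2 groups. The call of cryaa was lost without PFPeA 1 (0.52, adjusted p = 0.0516) or PFPeA 2 (0.58, 0.0545). That of crybb2 was lost without FBSA 2 (-2.35, 0.150), FBSA 3 (-2.35, 0.108), PFPeA 2 (-2.68, 0.0965) or PFPeA 3 (-2.32, 0.141). That of crygm2d16 was lost without FBSA 1 (-0.40, 0.0693), FBSA 2 (-0.30, 0.154), PFPeA 2 (-0.40, 0.0915) or PFPeA 3 (-0.30, 0.160). Without the pair Control 3 and 42FTS 2, crybb2 had an adjusted p of 0.0521 and crygm2d16 of 0.0539. In a fit of the 2 groups alone, cryba1l2 had an adjusted p of 0.0539 and crygm2d16 of 0.145. For crybb2 there was no value in that fit, and DESeq2 gave it no adjusted p. Its call was also lost with a replicate block in the 4 groups with numbered columns (-2.90, adjusted p = 0.0804 by edgeR). In the same 4 groups without the block, crybb2 (-2.79, 0.0565) and crygm2d16 (-0.40, 0.0521) missed the threshold too.

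FBSA against 42FTS called 8 of 43 members, 7 higher and 1 lower, against 9.80% of all genes (5.69% higher and 4.11% lower). At an unadjusted p under 0.05, 14 members passed, against 24.2% of all genes. The groups did not overlap in 12 members, 10 of them higher, against 28.3% of all genes. Besides cryaa (0.55, adjusted p = 0.0173 by edgeR) and cryba1l2 (0.44, adjusted p = 0.00123), the higher genes were cryba1a (0.58, 0.0369), cryba1b (0.28, 0.0320), cryba1l1 (0.28, 0.0200), crybb1 (0.22, 0.0430) and the gamma M gene crygmxl2 (0.29, 0.0297). The lower gene was crybb1l3 (-0.66, 0.0100). Of these, cryba1l2, cryba1a, cryba1b and cryba1l1 encode acidic beta chains and crybb1 a basic one. For cryba1b, FBSA 1, 2 and 3 had 1329, 1133 and 1207 CPM, against 953, 1000 and 1060 CPM in 42FTS 1, 2 and 3, with no overlap. For crybb1 the groups overlapped, with 1444 to 1664 CPM in FBSA against 1300 to 1451 CPM in 42FTS.

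Most of these calls rested on the full set of libraries. cryba1l2 kept its call without any single library of the 2 groups. cryaa lost it without FBSA 1 (0.44), 42FTS 1 (0.54) or 42FTS 2 (0.47), and crybb1l3 without FBSA 2 (-0.59). Leaving out FBSA 1, FBSA 3, 42FTS 1 or 42FTS 2 each ended the calls of 4 genes, namely cryba1b (0.21, 0.29, 0.25 and 0.28), cryba1l1 (0.25, 0.25, 0.25 and 0.27), crybb1 (0.18, 0.19, 0.19 and 0.20) and crygmxl2 (0.22, 0.27, 0.27 and 0.25). cryba1a lost its call without any library but 42FTS 3 (0.44 to 0.63). Without the pair Control 3 and 42FTS 2, only 1 member was called higher. Calls over all genes fell as well, from 2339 with all libraries to 1339 without that pair. They numbered 2165 without FBSA 1, 2044 without FBSA 3, 1389 without 42FTS 1 and 1441 without 42FTS 2.

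The 3 acids were compared with one another in the remaining pairs, and none called a crystallin in edgeR (0 of 43 members and 0% of all genes in each) or in DESeq2. PFPeA against PFBS had 3 members at an unadjusted p under 0.05, against 4.83% of all genes, and 8 without overlap, against 10.3%. 42FTS against PFBS had 11 members at an unadjusted p under 0.05, against 4.39% of all genes. Its groups did not overlap in 15 members, all lower in 42FTS, against 10.2% of all genes. PFPeA against 42FTS had 1 member at an unadjusted p under 0.05, against 6.82% of all genes, and 8 without overlap, all higher in PFPeA, against 13.5% of all genes. The count at an unadjusted p under 0.05 was 13 without PFPeA 1, 5 without 42FTS 3, 3 without 42FTS 1, 2 without PFPeA 2 and 0 without PFPeA 3. For PFPeA against PFBS it was 1 without PFBS a. No share of all genes was computed for these fits without single libraries, so their counts are not read as enrichment.

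In 42FTS against PFBS, which share a sulfonic acid and differ by the ethyl spacer, 38 of 43 log2 fold changes lay below 0, with a median of -0.19 over the members and -0.01 over all genes. crybb1 had 1300, 1322 and 1451 CPM in 42FTS 1, 2 and 3, against 1568, 1539 and 1543 CPM in PFBS 2, a and b. Every 42FTS library lay below every PFBS library, and the log2 fold change was -0.19 (95% CI -0.33 to -0.05, adjusted p = 0.988 by edgeR). crygmxl2 had 332, 321 and 372 CPM in 42FTS 1, 2 and 3, against 400, 418 and 416 CPM in PFBS 2, a and b, again without overlap. The count at an unadjusted p under 0.05 was 3 without 42FTS 1, with 40 below 0, and 4 without PFBS b, with 37 below 0. Without 42FTS 2, 35 members lay below 0 and 4 had an unadjusted p under 0.05. Without 42FTS 3, 39 lay below 0 and 18 had an unadjusted p under 0.05. The share of all genes at that level was not computed without single libraries, so these counts are not read as enrichment.

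Over all 5 groups, edgeR's F-test called 3 of the 43 crystallins, against 6.38% of all genes. These were cryaa (adjusted p = 0.0402), cryba1l2 (adjusted p = 0.00201) and crybb1l3 (adjusted p = 0.00829). At an unadjusted p under 0.05, 11 members passed. The share of all genes at that level was not computed for this test, so the count is not read as enrichment. The order of the mean levels of cryaa was FBSA (56.8 CPM), PFBS (42.6), Control (39.7), 42FTS (38.7) and PFPeA (37.9). The last 4 lay within 1 SD of their neighbours. For cryba1l2 the order was FBSA (54.0 CPM), PFPeA (43.2), Control (40.9), 42FTS (39.7) and PFBS (38.3). For crybb1l3 it was PFPeA (9.75 CPM), 42FTS (7.92), Control (7.76), PFBS (7.64) and FBSA (5.01), in which the 3 middle groups lay within 1 SD of each other. DESeq2 called 5 members over the 5 groups, against 14.8% of the genes to which it gave an adjusted p.

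The crygm2d genes are close relatives in tandem, and reads could be split among them and their suffixed entries. In the RefSeq annotation of another assembly (GRCz12tu), used only for gene order, all 57 members were found. All 21 crygm2d genes lay in 1 run of 31 neighbouring protein-coding crystallin genes, while the pairs cryba1l2 with crybb1l2, crybb1 with cryba4, cryba1l1 with crybb1l1, cryba1a with crybb1l3, and crygmx with crygmxl2 were neighbours. In FBSA against Control, the called beta genes did not share their calls with their neighbours. cryba1l2 was called and crybb1l2 was not, and crybb1l3 was called lower and cryba1a was not called. In the remaining pairs neither gene was called. The summed crygm2d genes averaged 1798 ± 207 CPM in FBSA and 1853 ± 112 CPM in Control, and the other gamma genes 1510 ± 157 CPM in FBSA and 1420 ± 69.8 CPM in Control (SD, n = 3 each).

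The count table also held 23 crystallin entries with a numbered suffix, 15 of them tested. They held reads that varied between libraries of one group. In crygm2d1 the suffixed entry took 23.7% (PFBS b) to 51.6% (Control 3) of the reads of both entries, in crygm2d2 20.4% (PFBS b) to 53.5% (Control 3), in crygm2d10 18.5% (FBSA 3) to 45.8% (Control 3) and in crygm2d21 13.5% (PFBS b) to 31.4% (Control 3). These were the crygm2d genes whose suffixed entry averaged more than 10 CPM, and Control 3 had the highest share in all 4. In crygm2d20 (3.32%) and crygm2d3 (10.6%), whose suffixed entries were smaller, Control 3 had the lowest share. The mean coefficient of variation within groups was 17.5% for the main entry and 8.20% for the summed entries of crygm2d1, 17.6% and 9.42% for crygm2d2, 15.8% and 9.73% for crygm2d10, and 10.4% and 7.38% for crygm2d21. Within FBSA it was higher for the summed entries of crygm2d2 (6.69%, against 3.98% for the main entry) and of crygm2d21 (6.38%, against 5.39%). For cryaa the suffixed entry took 2.85% (FBSA 1) to 9.04% (FBSA 2), and the summed entries averaged 60.2 ± 5.79 CPM in FBSA and 41.8 ± 4.40 CPM in Control (SD, n = 3 each). Values of single crygm2d genes with a suffixed entry are uncertain for this reason. The genes crygm2d8, crygm2d13 and crygm2d16 had no such entry, but their reads could still be split with their close relatives.

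**Figure D5:**
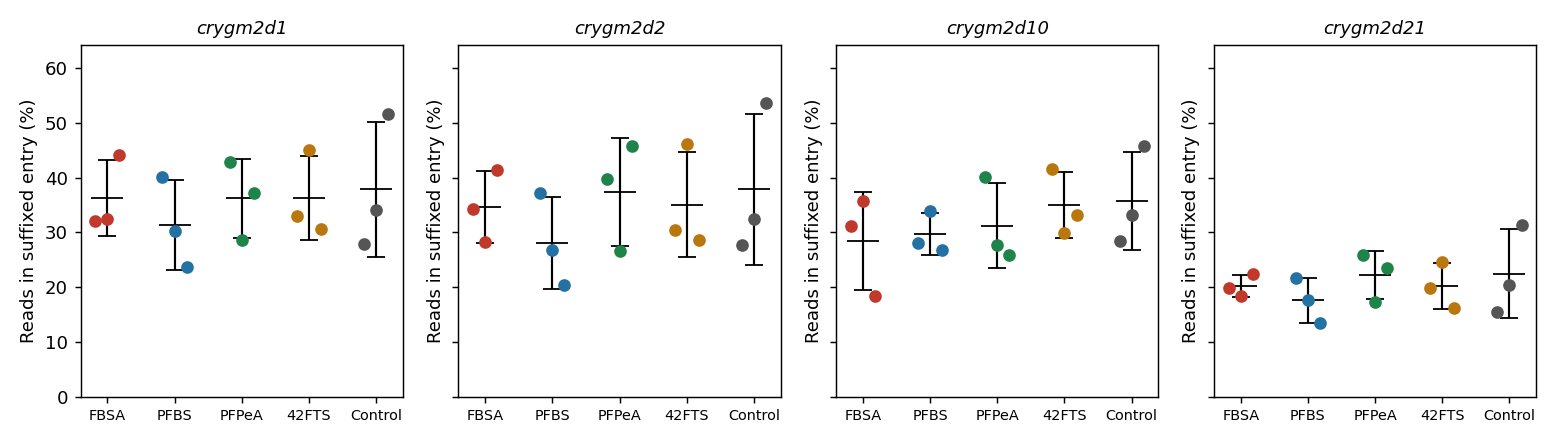
Percentage of the reads of a gene (vertical axis, from 0) that were counted in its suffixed entry, for crygm2d1, crygm2d2, crygm2d10 and crygm2d21 in each library (points), by group, with the mean (long bar) and SD (whiskers) of 3 libraries. The highest point of each panel is Control 3, at 51.6%, 53.5%, 45.8% and 31.4%.

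Other genes of the lens were read from lists drawn up with earlier results of these data known. In FBSA against Control, edgeR called 5.28% of all genes higher and 4.25% lower. Of 26 tested genes of lens fibre structure and maturation, 1 was called higher and 0 lower in that comparison. This was mipb, at 309, 285 and 278 CPM in FBSA 1, 2 and 3, against 246, 261 and 247 CPM in Control 1, 2 and 3, with no overlap (log2 fold change 0.21, SE 0.05, adjusted p = 0.0219 by edgeR). The call was lost without FBSA 1 (0.16, adjusted p = 0.0768), Control 1 (0.19, 0.0847) or Control 3 (0.20, 0.0794), in a fit of the 2 groups alone (0.0845) and without the pair Control 3 and 42FTS 2 (0.20, 0.0734). Of 24 tested genes on the list of lens transcription factors, pax6a was called higher (0.22, adjusted p = 0.0291), and tfap2a (-0.31, 0.00750) and meis2a (-0.20, 0.00606) lower. In whole embryos, reads of these genes can also come from outside the lens, and the share from the lens was not tested. The call of pax6a was lost without FBSA 1 (0.17), FBSA 2 (0.21), Control 2 (0.22) or Control 3 (0.19), without the pair Control 3 and 42FTS 2 (0.19, adjusted p = 0.118) and in a fit of the 2 groups alone (0.116). The calls of tfap2a and meis2a held without any single library, and that of meis2a was lost in a fit of the 2 groups alone (0.0551).

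The lens factors foxe3, hsf4, pitx3 and prox1a were not called in FBSA against Control, whereas pax6a was. The lens epithelial factor foxe3 averaged 4.91 ± 0.430 CPM in FBSA and 3.36 ± 0.883 CPM in Control (log2 fold change 0.54, adjusted p = 0.0848 by edgeR), and it passed without Control 2 (0.77, adjusted p = 0.0339). The heat shock factor of lens fibres, hsf4, had -0.21 (adjusted p = 0.329). For pitx3 the value was 0.04 (adjusted p = 0.801) and for prox1a, a factor of fibre differentiation, 0.08 (adjusted p = 0.414). Of 12 genes of other small heat shock proteins and their factors, edgeR called 0, against 9.53% of all genes. An unadjusted p under 0.05 was reached by 1 of them, against 23.7% of all genes. In PFBS, PFPeA and 42FTS against Control, edgeR called 0 genes of every list, and 0% of all genes.

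Markers of other cells were read in the same libraries. Over all genes, edgeR called 5.28% higher and 4.25% lower in FBSA against Control. Of 14 neuronal genes, 10 were called lower and 0 higher, and their summed level was 3166 to 3632 CPM in FBSA against 4028 to 4136 CPM in Control. Of 21 tested photoreceptor genes, 1 was called lower (otx5, -0.40, adjusted p = 0.0190 by edgeR), a call lost without FBSA 2 (-0.27, 0.0520) or Control 1 (-0.34, 0.0783), with a summed level of 170 to 223 CPM in FBSA against 236 to 270 CPM in Control. Of 22 tested genes of other retinal cells, 3 were called higher (neurod4, atoh7 and ptf1a) and 3 lower (isl2b, rbpms2a and rlbp1a), beside 5.28% and 4.25% of all genes. In whole embryos their reads can also come from outside the retina, and the share from the retina was not tested. Without FBSA 2 the calls of atoh7 (adjusted p = 0.0667 by edgeR), isl2b (0.0880), ptf1a (0.187), rbpms2a (0.0887) and rlbp1a (0.178) were lost. Each of these 5 calls was also lost without Control 1, and those of ptf1a (0.144), rbpms2a (0.0880) and rlbp1a (0.0880) without the pair Control 3 and 42FTS 2. The retinal genes had a summed level of 723 to 770 CPM in FBSA against 712 to 754 CPM in Control. In this sum, neurod4 averaged 144 ± 11.6 CPM in FBSA and 86.5 ± 4.21 CPM in Control (SD). The median log2 fold change over the 22 genes was -0.13, against 0.01 over all genes. At an unadjusted p under 0.05 by edgeR, 13 of them passed, against 23.7% of all genes. Of 17 skeletal muscle genes, 1 was called higher and 2 lower, with a summed level of 52686 to 59157 CPM in FBSA against 58619 to 58962 CPM in Control. The summed list of lens fibre genes outside the crystallins lay at 2338 to 2446 CPM in FBSA and at 2276 to 2348 CPM in Control. This list also names genes such as cdh2 and sparc, and the share of its sum from outside the lens was not tested. How far the shifts in the markers above enter the crystallin values was not tested either.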

How the data were processed

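Read counts per gene in 15 libraries were deposited as whole numbers without normalization. Per the submitters' processing notes, the build was GRCz11 and the tools included DESeq2, RSEM, HTSeq, HISAT2 and Bowtie2, with versions and roles not given in the sources used here. Whether counting used the strand is not given either. The authors' deposited table gave, per the file headers, TPM per sample, log2 fold changes and q-values (Q) against the control for 1909 genes with an FBSA Q under 0.05; 45 of its columns were not used. A pair of PFBS count columns shared 1 header name, so these libraries are called PFBS a and PFBS b.

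Category lines naming no gene were left out, and gene entries held 63.7% to 66.6% of all counted reads per library. Testing used edgeR 4.0.16 under R 4.3.3. Entries passing filterByExpr, with trimmed-mean scaling (TMM), entered a robust quasi-likelihood model of the 5 groups, without covariates, over the 15 libraries. Each of 10 pairs of groups was tested two-sided, with Benjamini-Hochberg adjustment over all 23874 genes within a comparison and a threshold of 0.05; no adjustment was made over the 10 comparisons. Alternatives were other size factors, DESeq2 1.42.0, other filters, fits of fewer groups, a replicate block and omitted libraries. The code was tested on simulated data. Intervals rest on the spread between libraries within groups, 3 per group, estimated over all 15 libraries with information shared across genes.

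Named members were all alpha genes, the 8 beta and 8 gamma genes with the most reads, and genes past the threshold. Members and lists were chosen with earlier results of these data known.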

Additional observations from a re-analysis of the deposited data

How the results depend on the processing

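No called value changed direction under the alternatives run. The median over the members changed sign without single libraries in FBSA against Control, PFBS and PFPeA, in PFPeA against Control and in PFPeA against PFBS. The calls of cryba1l2 in FBSA against Control, PFBS and 42FTS held under every alternative. Counts of crystallins called moved as follows. With only the 2 groups in the fit, which called 855 genes in FBSA against Control in place of 2274, edgeR called 0 lower in FBSA against Control, PFBS and 42FTS, 1 higher against PFPeA and 2 higher against 42FTS. Over all genes the 2-group fits called 934 against PFBS, 438 against PFPeA and 788 against 42FTS, in place of 2422, 1971 and 2339. Without Control 3 and 42FTS 2, edgeR called 1 higher and 0 lower against Control, 2 higher against PFBS and 1 higher against 42FTS. Over all genes it then called 1228 against Control, 2125 against PFBS and 1339 against 42FTS. FBSA against PFBS gave 2 higher in DESeq2, with a filter of at least 1 CPM in at least 3 libraries, and with suffixed entries added to their members, an alternative chosen after seeing the data. DESeq2 called 5 members over the 5 groups, against 14.8% of all genes with an adjusted p. Over all genes it called 3351 in FBSA against PFBS, and 6, 15 and 12 in PFBS, PFPeA and 42FTS against Control. Members without an adjusted p numbered 2, 0, 3 and 3 in these comparisons. Between the acids it called 14 genes in PFPeA against PFBS, 11 in 42FTS against PFBS and 24 in PFPeA against 42FTS. Leaving out 1 library at a time gave 1 to 2 higher and 0 to 2 lower in FBSA against Control, 1 to 2 and 0 to 2 against PFBS, 1 to 2 and 1 to 3 against PFPeA, 1 to 7 and 0 to 2 against 42FTS, and 1 to 3 over the 5 groups.

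Replicate numbers showed no clear pairing of the libraries. Over 18 pairs with the same number in different groups, the correlation of deviations from group means ran from -0.06 to 0.09. Over 36 pairs with different numbers it ran from -0.12 to 0.13. With 3 libraries per group, these values cannot exclude a shared clutch or day. With the replicate block, in the 4 groups with numbered columns, FBSA against 42FTS had 4 members called higher. Without the block in the same 4 groups, a fit added after seeing the data, it had 3, and FBSA against PFPeA had 1 lower. Over all genes, FBSA against 42FTS had 2077 calls with the block and 2016 without it, against 2339 in the main fit. FBSA against PFPeA had 1730 with the block and 1700 without it, against 1971 in the main fit. Under the block, the lens fibre gene mipb missed the threshold in FBSA against Control (0.21, adjusted p = 0.0509 by edgeR).

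Low counts limit precision for crybb2, whose 95% CI in FBSA against Control ran from -4.09 to -0.81. The median 95% CI over the 43 members reached 0.35 to either side on the log2 scale, and over all genes 0.44.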
